A study of Mus musculus with 4 samples.

Results

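The genes described here are 10 genes of cytosolic DNA sensing, taken by symbol from a table of 16857 genes. They are the DNA sensors Aim2 and Ifi204, the kinases Tbk1 and Ikbke, the transcription factor Irf3, the exonuclease Trex1, the nucleotide hydrolase Samhd1 and the RNase H2 subunits Rnaseh2a, Rnaseh2b and Rnaseh2c. All 10 had a row, and all 10 passed the filter on low values, a mean of at least 1 normalized count, which left 13981 genes for testing. Bulk RNA came from 4 mouse adenoma colonoid lines, which are epithelial cultures grown from colon tumour tissue, with 1 library per line. The G2 group held lines 157 and 236, labelled Apcnull and homozygous for LSL-mTERT. The G0 group held lines 75 and 179, labelled Apcnull and heterozygous for LSL-mTERT. All 4 lines also carried the name Apcmin. The design text speaks of colonoids with low and with high chromosomal instability but ties neither name to G2 or G0. With 2 lines in each group and no statement that each line came from its own mouse, every p-value below measures the spread between these lines.

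DNA in the cytosol of a mammalian cell is read as a sign of infection or damage. The enzyme cGAS makes the second messenger cGAMP on such DNA, cGAMP binds STING, and STING recruits the kinases TBK1 and IKK-epsilon, which phosphorylate IRF3 and so switch on interferon genes. AIM2 follows another route and assembles an inflammasome with the adaptor ASC and caspase-1. TREX1, RNase H2 and SAMHD1 act as brakes, because they degrade DNA, remove ribonucleotides from it or limit nucleotide supply, and inherited loss of each of them causes an interferon disease in humans. In intestinal epithelium the pathway is studied for its response to micronuclei and to damaged telomeres.

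The libraries held between 16545429 and 17901744 recovered counts. Tert, the gene altered by the labelled allele, had 0 and 1.0 normalized counts in G2 and 93.3 and 97.5 in G0. Kdm5d, Eif2s3y, Ddx3y and Uty, all Y-linked, summed to 1667 and 1630 normalized counts in G2 and to 0 in both G0 libraries, so the presence of Y transcripts cannot be told apart from the group in any comparison below. The epithelial marker Epcam had 6844 and 8669 normalized counts in G2 and 5995 and 6994 in G0. Limma, two-sided, called 4 of 10 epithelial markers, against 10.5% of all genes tested: Cdh1 was higher in G2, and Vil1, Cdx2 and Lgals4 were lower. Cdx2, the intestinal identity factor, had 270.3 and 186.7 normalized counts in G2 and 2395 and 3199 in G0. Several of the genes described here are also active in blood cells, so leukocyte markers were read beside them. The leukocyte marker Ptprc had a count of 0 in all 4 libraries, as had Itgam, Fcgr1, Mpeg1, Spi1 and Itgax, and 5 of the 15 leukocyte and macrophage markers had no row. Among those left, Csf1r had 16.1 and 4.9 normalized counts in G2 and 0 in both G0 libraries, and Laptm5 had 7.1 and 23.5 in G2 and 1.0 in each G0 library. The whole leukocyte list summed to 1177 and 1923 normalized counts in G2 and to 1131 and 2111 in G0, of which Cd68 made up nearly all. The lymphocyte list summed to 3.0 and 2.0 normalized counts in G2 and to 3.9 and 4.1 in G0, and the fibroblast list to 10.1 and 10.8 in G2 and to 4.9 and 6.1 in G0. The endothelial list summed to 99.8 and 113.4 in G2 and to 21.6 and 27.4 in G0, while Pecam1 had 1.0 and 2.0 in G2 and 0 in both G0 libraries. Both endothelial markers tested passed as higher in G2, against 5.93% of all genes tested. Tek averaged 46.2 ± 1.7 in G2 and 3.5 ± 0.8 in G0 (limma, adjusted p = 0.00587), and Vwf had 51.4 and 66.5 in G2 and 17.7 and 23.4 in G0 (adjusted p = 0.0496). Csf1r also passed as higher (limma, adjusted p = 0.0431). So did the fibroblast marker Col3a1, with 7.1 and 6.8 in G2 and 0 in both G0 libraries (adjusted p = 0.0404). The other fibroblast marker tested, Col1a1, went the other way, with 1.0 and 2.0 in G2 and 4.9 and 4.1 in G0 (adjusted p = 0.306). Both of these fibroblast markers rest on few counts. The part of endothelial, leukocyte or fibroblast cells or transcripts in the results below was not tested.

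The question put to each gene was whether its transcript level differed between G2 and G0 lines. None of the 10 genes passed the limma test at an adjusted p of 0.05, against 10.5% of all genes tested. The unadjusted p was under 0.05 for 4 of the 10 genes, namely Ifi204, Rnaseh2b, Aim2 and Rnaseh2a, against 26.8% of all genes tested. The libraries of the groups did not overlap for 7 of the 10 genes, against 57.8% of all genes tested, so this share is near the background. Both sensors and both kinases had G2 libraries above both G0 libraries, which is 4 of 10 genes against 29.2% of all genes. The 3 RNase H2 subunits had both G2 libraries below both G0 libraries, which is 3 of 10 genes against 28.6% of all genes. The groups overlapped for Irf3, Trex1 and Samhd1. The median log2 fold change of the 10 genes, G2 minus G0, was -0.06, and that of all genes tested was 0.01. In bulk RNA fewer cells of a type and less RNA per cell cannot be told apart, which holds for every level given here.

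**Figure D1:**
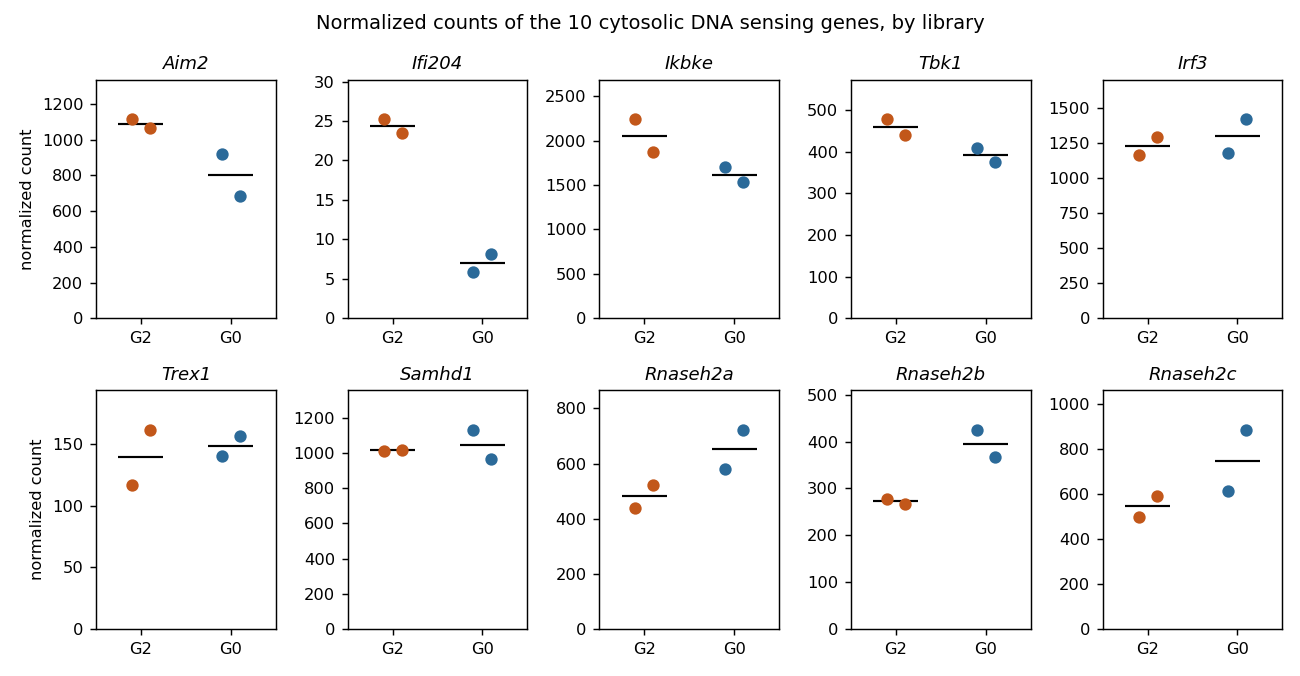
Normalized counts (vertical axes, from 0) of the 10 genes, with 1 point per library, G2 left and G0 right in each panel, and a bar at the mean of 2 libraries. Aim2, Ifi204, Ikbke and Tbk1 have both G2 points above both G0 points, the RNase H2 genes have both below, and Irf3, Trex1 and Samhd1 overlap.

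Aim2, which binds double-stranded DNA and starts the inflammasome route, lies on chromosome 1 from 173349547 to 173466040 (GRCm38.p6, the build also called mm10). It had 1114 and 1066 normalized counts in G2 lines and 922.0 and 684.6 in G0 lines. The G2 lines were close to each other, while the higher G0 line stood 1.35 times above the lower one. The means were 1090 ± 33.9 in G2 and 803.3 ± 167.8 in G0 (SD, n = 2 each), a ratio of 1.36. On the log2 scale the difference was 0.46 (SE 0.18), and the 95% interval of the fold ran from 1.03 to 1.83 (limma, adjusted p = 0.157). Only 0.7% of the 50-base stretches of Aim2 transcripts also stood in transcripts of another gene in GENCODE M21, so few of its reads could have been assigned elsewhere.

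Ifi204, a DNA-binding protein of the same family that is treated in mouse as a counterpart of human IFI16, lies on chromosome 1 from 173747293 to 173767069, in the Ifi200 cluster that also holds Aim2. Its level was the lowest of the 10 genes. Ifi204 had 25.2 and 23.5 normalized counts in G2 and 5.9 and 8.1 in G0. Both G2 lines stood well above both G0 lines, but the G0 values rest on 6 and 8 counts. The means were 24.3 ± 1.2 in G2 and 7.0 ± 1.6 in G0, a ratio of 3.47, with a 95% interval of the fitted fold from 1.5 to 6.77 (limma, adjusted p = 0.0644). It passed with a pseudocount of 5 (adjusted p = 0.0434) and without the intensity trend (adjusted p = 0.0406), and its adjusted p ranged from 0.0263 to 0.246 over the alternatives. Of its 50-base stretches 14.8% also stood in Ifi211 and 5.4% in Mndal, so its reads are uncertain. With Ifi211 added to it, an alternative chosen after seeing the data, the log2 fold change was 1.35 and the adjusted p 0.0849. Of the leukocyte markers, Csf1r and Laptm5 stood higher in G2 as well, with 16.1 and 4.9 and with 7.1 and 23.5 normalized counts. Fcer1g had 3.0 and 2.0 in G2 and 1.0 and 0 in G0. Ptprc, Itgam, Fcgr1, Mpeg1, Spi1 and Itgax were at 0 in every library, and the groups overlapped for Cd68, with 1151 and 1892 in G2 and 1129 and 2110 in G0. The part of leukocyte transcripts in the Ifi204 values was not tested.

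The rest of the Ifi200 family was nearly silent in these lines. Of 13 further family genes 10 had a row, 4 of them had a count of 0 in all 4 libraries, and 3 passed the filter on low values, none of which passed the limma test. The share that passed was 10.5% over all genes tested. The unadjusted p was under 0.05 for 1 of the 3, Ifi209, against 26.8% of all genes tested. Ifi209 had 7.1 and 2.9 normalized counts in G2 and 0 and 1.0 in G0 (adjusted p = 0.168). Ifi211 had 14.1 and 6.8 in G2 and 5.9 and 6.1 in G0 (adjusted p = 0.508). Mndal, the next gene with a row on the higher coordinate side of Ifi204, had 1.0 and 0 in G2 and 0 in both G0 libraries. Family promoters are shown here because the family is known as interferon-inducible. Of those printed below, the promoters of Ifi206, Ifi207 and Ifi208 belong to genes with a count of 0 in all 4 libraries. The interferon-stimulated response element was searched on both strands as GAAA, any 2 bases and GAAA, from 250 bases before to 50 bases after the listed start (RefSeq sequences of GRCm38.p6). It stood in promoters of 9 of 11 family genes with an entry, in 5 of 9 interferon target genes with an entry and in 3.44% of all 32851 promoters. Ifi209 and Ifi202b were the family genes without it. Of the target genes that passed as higher in G2, Ifit3 held it, Ifit2, Oasl2 and Ifi44 did not, and Usp18 had no entry. Whether the element goes with the levels was not tested. Among the genes described here 8 of 10 had an entry, Ifi204 and Rnaseh2b being without one, and 0 of the 8 held the element. The element is in capitals with 10 bases on each side, on the strand of the gene. The same window of Oas3 follows, a gene of the RNA sensor list and not of the interferon target genes counted here.
Ifi206: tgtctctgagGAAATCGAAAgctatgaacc
Ifi207: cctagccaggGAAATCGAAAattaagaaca
Ifi208: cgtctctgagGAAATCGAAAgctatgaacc
Mndal: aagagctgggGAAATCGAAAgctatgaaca
Ifi211: caaagccaggGAAATTGAAAgctatgaacg
Oas3: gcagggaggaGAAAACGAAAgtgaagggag
These windows lie at chr1:173491339-173491368 (minus strand), chr1:173741831-173741860 (minus), chr1:173673597-173673626 (plus), chr1:173880204-173880233 (minus), chr1:173913064-173913093 (minus) and chr5:120777715-120777744 (minus). Of the windows shown, those of Ifi206, Ifi207, Ifi208 and Mndal hold the same letters throughout the element. Ifi211 and Oas3 each differ at the open positions. Ifi203, Ifi205, Ifi213 and Ifi214 also held the element and are not shown, so the likeness of letters covers only a chosen part of the family. The Mndal window overlaps an annotated exon of Mndal. A match of letters is a description and not a shown binding site.

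The window of Aim2, chr1:173420354-173420653, lacked the element. This window lies inside the gene span given above, which begins at 173349547, and not at the outer end of that span. Of the Aim2 sequence before this listed start, the 120 bases nearest the start that no annotated exon covers are shown. Every CG is in capitals, and the same is given for Ikbke, Tbk1 and Rnaseh2c. These are the genes described here that had an entry, non-overlapping groups and 120 such bases.
Aim2: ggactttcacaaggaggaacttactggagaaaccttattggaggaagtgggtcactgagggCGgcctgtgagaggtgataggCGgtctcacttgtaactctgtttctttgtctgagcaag
Ikbke: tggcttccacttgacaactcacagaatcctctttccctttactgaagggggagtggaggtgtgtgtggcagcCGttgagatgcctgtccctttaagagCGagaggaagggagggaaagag
Tbk1: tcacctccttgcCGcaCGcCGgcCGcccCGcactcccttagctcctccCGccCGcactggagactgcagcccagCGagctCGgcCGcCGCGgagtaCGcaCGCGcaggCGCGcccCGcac
Rnaseh2c: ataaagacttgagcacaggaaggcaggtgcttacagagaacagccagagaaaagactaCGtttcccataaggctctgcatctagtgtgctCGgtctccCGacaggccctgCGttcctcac
They lie at chr1:173420451-173420570 (plus strand), chr1:131279607-131279726 (minus), chr10:121586795-121586914 (minus) and chr19:5601753-5601872 (plus). Tbk1 held 18 CG in this stretch, against 2 in Aim2, 2 in Ikbke and 4 in Rnaseh2c. Over the full 250 bases before the start Tbk1 held 31 CG and Samhd1 26, against 4 in Aim2 and 4 in Ikbke and a median of 6 over all promoters. The letters of an NF-kappaB site, searched on both strands as GGG, any 2 bases and TTTCC, stood in 0 of the 8 genes and in 1.63% of all promoters. A STAT site, searched as TTC, any 3 bases and GAA, stood in Samhd1 and Rnaseh2a and in 8.3% of all promoters. The window of Rnaseh2a, chr8:84966027-84966326 (minus strand), also lies inside its gene span, which ends at 84969598.

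The kinases that carry the STING signal came next. Ikbke, which encodes IKK-epsilon, lies on chromosome 1 from 131254600 to 131279601. It had 2237 and 1874 normalized counts in G2 and 1697 and 1535 in G0, so the lower G2 line stood above the higher G0 line. The means were 2055 ± 256.7 in G2 and 1616 ± 114.4 in G0, a ratio of 1.27, and the 95% interval of the fold ran from 0.997 to 1.61 (limma, adjusted p = 0.191). Tbk1, the kinase of the same family that is active in most tissues, lies on chromosome 10 from 121546455 to 121586794. It had 477.0 and 439.9 normalized counts in G2 and 409.5 and 373.8 in G0. The gap between the nearest lines of the groups was smaller than the gap between the lines of either group. Its means were 458.4 ± 26.3 in G2 and 391.6 ± 25.2 in G0, a ratio of 1.17, with an interval of the fold from 0.892 to 1.54 (adjusted p = 0.418). Per exonic length Ikbke exceeded Tbk1 in all 4 libraries, by 2.03 and 1.85 times in G2 and by 1.80 and 1.78 times in G0. The lengths, 9018 bases for Ikbke and 3910 for Tbk1, join the exons of all annotated transcripts, so this ratio depends on the annotation.

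Irf3, the transcription factor that both kinases activate, lies on chromosome 7 from 44997648 to 45002848. It had 1163 and 1288 normalized counts in G2 and 1178 and 1416 in G0, and the groups overlapped. The means were 1226 ± 88.7 in G2 and 1297 ± 168.1 in G0, a ratio of 0.945. The 95% interval of the fold, 0.739 to 1.22, leaves room for a change of either sign but not for a 2-fold one (adjusted p = 0.776). IRF3 is switched on by phosphorylation, which a transcript level does not show. Bcl2l12, which overlaps 2.6% of the exonic bases of Irf3 on the opposite strand, had 143.2 and 116.3 normalized counts in G2 and 115.9 and 153.4 in G0.

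**Figure D2:**
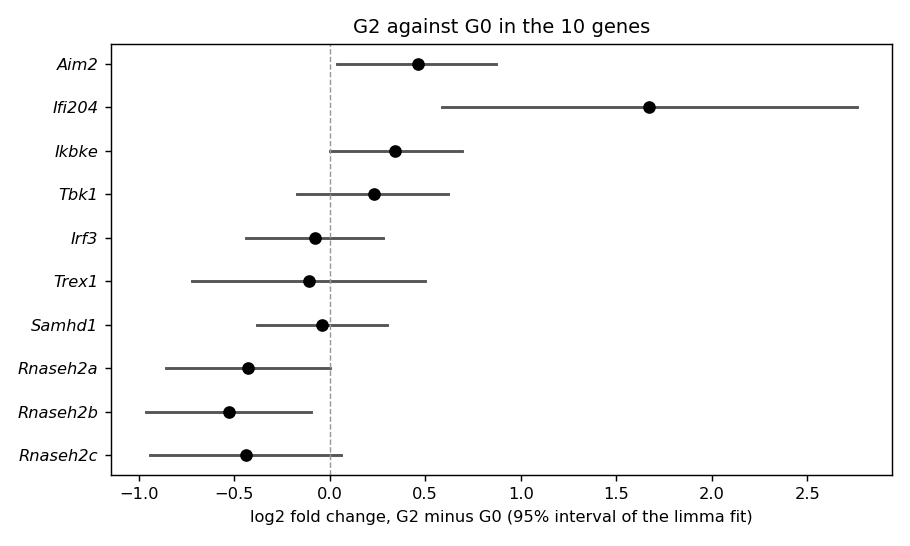
Log2 fold change, G2 minus G0, of the 10 genes from the limma fit (points) with its 95% interval (lines); the dashed line marks 0. Ifi204 has the largest estimate, 1.67, and the widest interval, 0.59 to 2.76, and Samhd1 lies nearest 0 at -0.04.

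Among the brakes of the pathway, the single enzymes Trex1 and Samhd1 showed overlapping groups. Trex1, the main exonuclease of cytosolic DNA, lies on chromosome 9 from 109057932 to 109059723. It had 117.0 and 161.3 normalized counts in G2 and 140.4 and 156.4 in G0, with the lowest and the highest value both in G2. The means were 139.1 ± 31.3 in G2 and 148.4 ± 11.3 in G0, and the interval of the fold ran from 0.608 to 1.41 (adjusted p = 0.818). All 1147 exonic bases of Trex1 also lie in exons of Atrip on the same strand in GENCODE M21, and 95.8% of its 50-base stretches stood in Atrip transcripts, so reads of these genes cannot be told apart by sequence and the split is uncertain. Atrip, which recruits the checkpoint kinase ATR, had 190.6 and 238.5 normalized counts in G2 and 228.8 and 225.5 in G0, and the sum of both genes gave a log2 fold change of -0.10 (adjusted p = 0.779).

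Samhd1, which hydrolyses deoxynucleotides, lies on chromosome 2 from 157097534 to 157135096. It had 1014 and 1019 normalized counts in G2 and 1130 and 965.0 in G0, and both G2 lines lay between the G0 lines. The ratio of the means was 0.970 and the 95% interval of the fold ran from 0.767 to 1.23 (adjusted p = 0.884). Its log2 fold change was -0.04, and it turned to 0.03 when library totals set the scale and to 0.07 without G0 replicate 1.

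RNase H2, which removes ribonucleotides from DNA, is built of the catalytic subunit A and the partner subunits B and C, and all 3 genes had both G2 lines below both G0 lines. Rnaseh2a, on chromosome 8 from 84956610 to 84969598, had 439.7 and 522.9 normalized counts in G2 and 581.3 and 721.2 in G0. The ratio of its means was 0.739 (log2 fold change -0.43, SE 0.18, limma adjusted p = 0.186). Rnaseh2b, on chromosome 14 from 62332068 to 62372996, had 278.3 and 266.8 normalized counts in G2 and 424.2 and 366.7 in G0. The G2 lines nearly coincided, with means of 272.6 ± 8.1 in G2 and 395.4 ± 40.6 in G0, a ratio of 0.689 and an interval from 0.514 to 0.930 (limma, adjusted p = 0.115). Rnaseh2c, on chromosome 19 from 5601873 to 5602959, had 498.2 and 589.4 normalized counts in G2 and 611.7 and 881.7 in G0. The G0 lines of Rnaseh2c differed 1.44-fold from each other, the widest gap within a group among the 10 genes, and its ratio was 0.728 (log2 fold change -0.44, SE 0.21, adjusted p = 0.236). Together the subunits summed to 1216 and 1379 normalized counts in G2 and to 1617 and 1970 in G0.

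The subunits kept similar proportions per exonic length across the 4 libraries. The joined exons span 3509 bases in Rnaseh2a, 6243 in Rnaseh2b and 1715 in Rnaseh2c, and the size of each share depends on these annotated lengths. Rnaseh2a made up 27.2% and 27.8% of the sum in G2 and 28.1% and 26.4% in G0. Rnaseh2c made up 63.1% and 64.2% in G2 and 60.4% and 66.0% in G0, and Rnaseh2b 9.7% and 8.0% in G2 and 11.5% and 7.5% in G0. For each subunit both G2 shares fell between the G0 shares. Rnaseh2c shares 24.8% of its exonic bases with Kat5 on the opposite strand, and the strand setting of the counting is not given in the sources used here, so its level may hold Kat5 reads. Kat5, a histone acetyltransferase, had 683.8 and 852.3 normalized counts in G2 and 784.5 and 957.9 in G0 (adjusted p = 0.548). Rnaseh2a shares 9.7% of its exonic bases with Gm49661 on the same strand, which had no row, and 7.8% of its 50-base stretches stood there, so its reads are uncertain as well. It also overlaps Prdx2 on the opposite strand over 5.0% of its exonic bases, and Prdx2, a peroxiredoxin, had 2968 and 4442 normalized counts in G2 and 3594 and 3992 in G0.

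**Figure D3:**
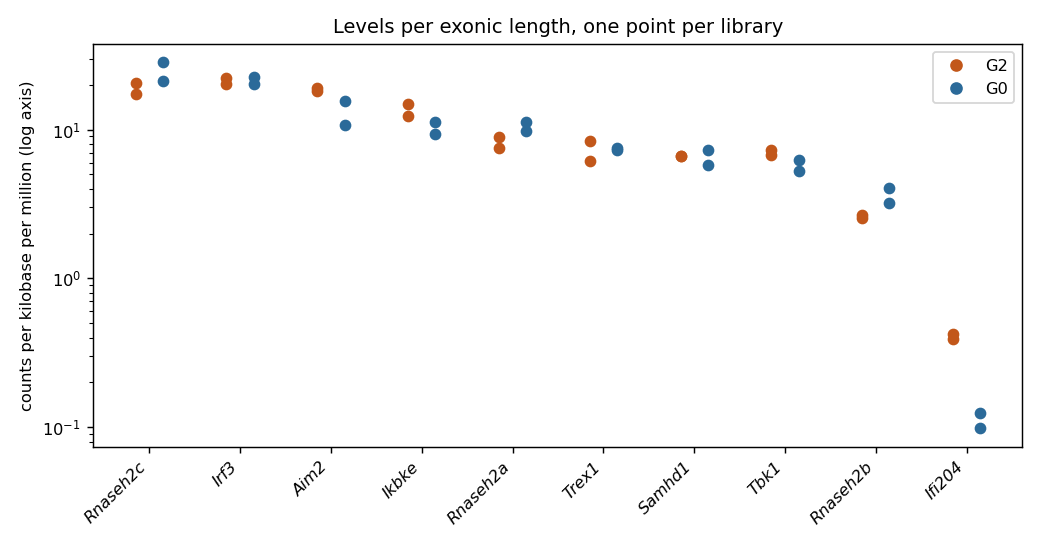
Length-scaled levels (RPKM scale, log axis) of the 10 genes, ordered by their mean over 4 libraries, with 1 point per library, G2 left and G0 right of each gene's tick. Rnaseh2c and Irf3 lead at means of 21.8 and 21.4, and Ifi204 lies far below the others at 0.26.

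Per exonic length the 10 genes spanned a wide range of levels, given here on the RPKM scale as the mean and range over 4 libraries. Because the lengths join the exons of all annotated transcripts, the order of the genes depends on the annotation. Rnaseh2c averaged 21.8 (17.4 to 28.3) and Irf3 21.4 (20.2 to 22.6), and their ranges overlapped. Aim2 followed at 15.9 (10.8 to 19.1), below every Irf3 value but within reach of the lowest Rnaseh2c ones, and overlapped Ikbke at 11.9 (9.36 to 14.9). Rnaseh2a averaged 9.38, Trex1 7.32, Samhd1 6.60 and Tbk1 6.37, and from Ikbke down to Tbk1 each range overlapped that of the next gene. Rnaseh2b averaged 3.12 (2.55 to 4.03) and Ifi204 0.26 (0.0982 to 0.424), and neither overlapped its neighbour in the order. On this scale the mean of the sensor Aim2 was 18.6 in G2 and 13.2 in G0, and that of Ifi204 was 0.409 in G2 and 0.112 in G0.

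The wider pathway was read from 8 lists of other genes, without the 10 genes above. In the list of STING, TBK1 and IRF3 signalling, 2 of 19 genes rose in G2 and 3 fell, against 5.93% and 4.56% of all genes tested, and the median log2 fold change was 0.07. Irf7, the interferon-induced relative of Irf3, had 410.5 and 369.5 normalized counts in G2 and 165.9 and 228.6 in G0, and rose 1.98-fold (adjusted p = 0.0353). It missed the threshold without the filter on low values (0.0595) and without the intensity trend (0.113). Lrrc8a, a subunit of the anion channel that can carry cGAMP, had 1249 and 1031 normalized counts in G2 and 687.3 and 685.7 in G0, and rose 1.66-fold (adjusted p = 0.0303). The genes that fell act on the same messenger or bind TBK1. Slc19a1, a folate carrier that imports cGAMP in human cells, had 478.0 and 442.8 in G2 and 843.5 and 814.7 in G0 (adjusted p = 0.0155). Enpp1, which hydrolyses cGAMP outside the cell, had 391.3 and 441.8 in G2 and 662.8 and 662.3 in G0 (adjusted p = 0.0412), and it missed the threshold with library totals as the scale (0.0677), without the filter on low values (0.0557) and without the intensity trend (0.117). Tbkbp1, an adaptor of TBK1, had 16.1 and 12.7 in G2 and 54.0 and 92.4 in G0 (log2 fold change -2.23, SE 0.41, adjusted p = 0.0194). The STING gene itself, listed as Tmem173 and chosen after its values were seen, had 3163 and 3681 normalized counts in G2 and 3844 and 4513 in G0 and did not pass (adjusted p = 0.267).

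Of 20 other DNA sensors and cofactors tested, 0 passed the limma test in either direction, against 10.5% of all genes tested. The median log2 fold change was -0.16, and 1 of the 20 had an unadjusted p under 0.05, against 26.8% of all genes. That 1 was Polr3d, a subunit of RNA polymerase III, which had 400.4 and 367.5 normalized counts in G2 and 549.9 and 506.9 in G0 (adjusted p = 0.127). Xrcc6, the Ku70 subunit of the DNA end-binding complex, had 508.3 and 593.3 in G2 and 662.8 and 784.2 in G0 (adjusted p = 0.193). Cgas, the enzyme that starts the STING route, had 245.1 and 177.9 in G2 and 330.9 and 241.8 in G0, and its groups overlapped (adjusted p = 0.314). Zbp1, a sensor of Z-form nucleic acid, had 49.4 and 141.7 in G2 and 32.4 and 48.8 in G0, with a 95% interval of the fold from 0.884 to 4.90 (adjusted p = 0.243). The choice of Cgas and Zbp1 followed a look at their values.

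Among 13 further nucleic acid clearance genes tested, 1 rose in G2 and 0 fell, against 5.93% and 4.56% of all genes tested, with a median of -0.20. Dnase1l3, a secreted DNase, had 54.5 and 89.9 normalized counts in G2 and 9.8 and 18.3 in G0, and rose 5.14-fold (adjusted p = 0.0249). Without the filter on low values (0.0506) and without the intensity trend (0.0788) Dnase1l3 missed the threshold. Banf1, a chromatin protein that shields DNA from cGAS, had 2990 and 2263 in G2 and 4501 and 3899 in G0 (adjusted p = 0.0509). It missed the threshold narrowly and passed as lower with a pseudocount of 5 (0.0456), a filter at a mean of 5 (0.0414), upper quartiles as the scale (0.0474) and limma voom (0.0499). Of 8 inflammasome genes tested, 2 rose and 0 fell, against the same 5.93% and 4.56%, with a median of -0.01. This list holds partners of Aim2 and members of other inflammasome routes such as Casp4, Nlrp3 and Nlrc4. Il18, the cytokine that caspase-1 matures, had 743.3 and 1136 in G2 and 104.1 and 70.1 in G0, and rose 10.8-fold (adjusted p = 0.00107). Casp4, the mouse sensor of bacterial lipopolysaccharide, had 305.6 and 262.0 in G2 and 91.3 and 80.2 in G0, and rose 3.31-fold (adjusted p = 0.00596). Pycard, which links AIM2 to caspase-1, had 79.7 and 171.1 in G2 and 92.3 and 151.4 in G0 (adjusted p = 0.985), and Casp1 had 227.9 and 162.3 in G2 and 111.9 and 100.6 in G0 (adjusted p = 0.0876), both chosen after their values were seen.

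**Figure D4:**
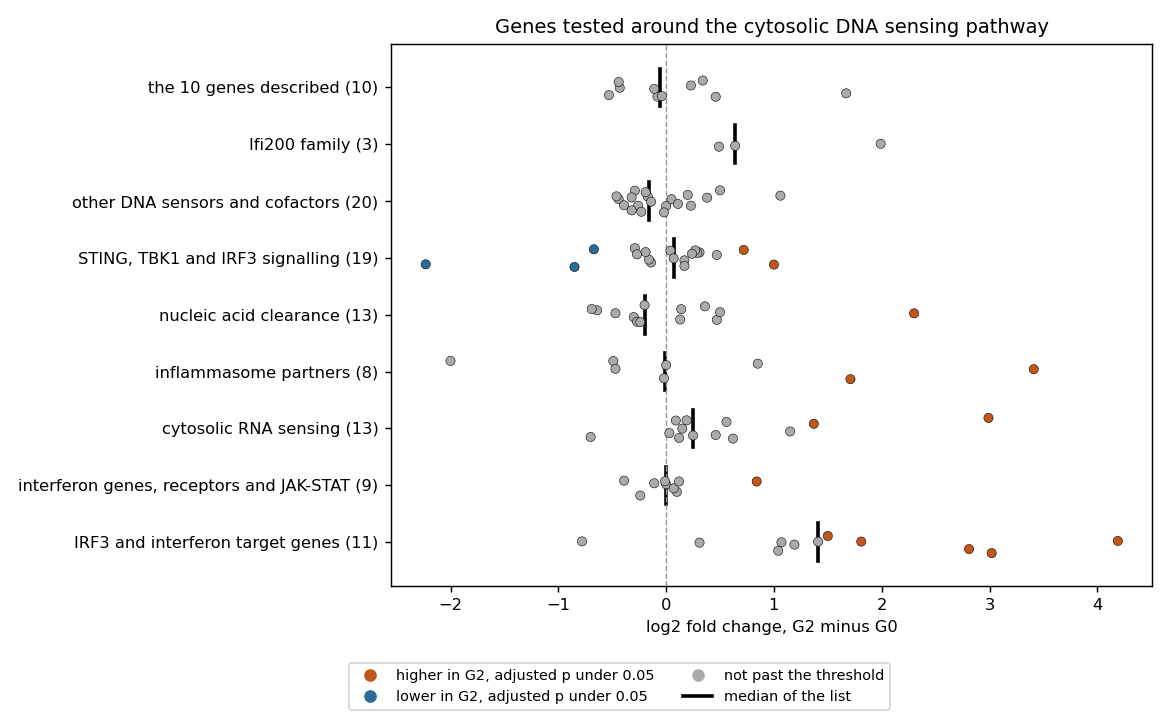
Log2 fold change, G2 minus G0, of every tested gene of the 10 genes described and of 8 other lists (number tested in brackets); orange points passed as higher in G2, blue as lower, grey did not pass, and black bars are list medians. The 10 genes have a median of -0.06 and no coloured point, and the interferon target list has a median of 1.41 and 5 orange points.

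Downstream of the pathway, few or no counts came from the interferon genes themselves. Ifnb1, Ifnl2 and Ifnl3 had a count of 0 in all 4 libraries, where a floor of 3 counts corresponds to 2.93 to 3.05 normalized counts, and Ifne had 0 and 3.9 normalized counts in G2, the second from 4 counts, and 0 in both G0 libraries. Ifna2, Ifna4 and Ifnk had no row and were not analysed here. Of 9 interferon receptor and JAK-STAT genes tested, 1 rose and 0 fell, against 5.93% and 4.56% of all genes tested. The 1 was Irf9, the DNA-binding part of the interferon-activated STAT complex. Irf9 had 734.2 and 887.5 in G2 and 403.6 and 503.8 in G0 (1.79-fold, adjusted p = 0.0336). It missed the threshold without the filter on low values (0.0559) and without the intensity trend (0.13). Ifnlr1, the receptor of type III interferons, had 414.5 and 384.1 in G2 and 522.4 and 526.2 in G0 (adjusted p = 0.170). The list of IRF3 and interferon target genes had 5 of 11 that rose and 0 that fell, against 5.93% of all genes higher, with a median of 1.41 beside 0.01 over all genes. Ifit2, an antiviral RNA-binding protein, had 207.7 and 175.9 in G2 and 14.7 and 6.1 in G0 (adjusted p = 0.00264), and its ratio of 18.4 was 31.5 without G0 replicate 1. Ifit3 had 75.6 and 41.1 in G2 and 4.9 and 10.2 in G0 (7.74-fold, and 11.9-fold without G0 replicate 2, adjusted p = 0.0194). Ifi44 had 48.4 and 46.9 in G2 and 7.9 and 3.0 in G0 (8.74-fold, and 15.6-fold without G0 replicate 1, adjusted p = 0.0146). Oasl2 rose 2.88-fold (adjusted p = 0.0106) and Usp18, which removes ISG15 from proteins and damps interferon signalling, rose 3.66-fold (adjusted p = 0.0428). Usp18 missed the threshold with limma voom (0.0586), without the filter on low values (0.0658) and without the intensity trend (0.0525).

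The sensors of cytosolic RNA were set beside the DNA sensors, since both routes end at TBK1 and IRF3. Of 13 tested, 2 rose and 0 fell, against 5.93% and 4.56% of all genes tested, with a median of 0.25. Oas2, which makes the activator of RNase L, had 119.0 and 252.2 normalized counts in G2 and 18.7 and 23.4 in G0 (8.83-fold, and 5.66-fold without G2 replicate 2, adjusted p = 0.00692). Oas3, of the same family, had 67.6 and 86.0 in G2 and 28.5 and 29.5 in G0 (2.65-fold, adjusted p = 0.0431), and it missed the threshold with limma voom (0.052) and without the filter on low values (0.0703). Across all pathway lists 16 genes were past the threshold. Of these, 14 were kept with limma voom, 10 without the filter on low values and 4 without the intensity trend. The 4 kept without the trend were Ifit2, Il18, Casp4 and Oas3. With any 1 of the 4 libraries left out, 0 genes of the whole table passed, so those fits do not bear on single calls. The log2 fold changes of the 16 kept their sign in each such fit, ranging for example from 0.59 to 0.86 for Lrrc8a, from -0.90 to -0.79 for Slc19a1 and from 1.24 to 1.76 for Oasl2. No difference between the 10 genes described and these lists was tested.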

How the data were processed

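Bulk RNA sequencing of 2 G2 and 2 G0 colonoid lines gave 1 deposited table of 16857 genes by 4 libraries. The authors deposited log2 values, with 6.508 as the shared minimum of the libraries. Per the submitters' processing notes, the tools were HISAT2 2.1.0, StringTie 2.1.1, DESeq2 1.32.0 and bcl2fastq 2.20.0, with the build mm10. No source used here gives the annotation, strand setting or read filters.

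The floor is that of a variance-stabilizing transformation of a count of 0. The transformation was inverted, and with 1 factor per library 100% of the values came out whole, to within 0.001. These may be rounded estimates, so no count model was used. Normalized counts are these whole numbers over the recovered size factors, 0.9916 and 1.0231 for G2 and 1.0184 and 0.9844 for G0.

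The test was limma 3.58.1 in R 4.3.3 (eBayes with an intensity trend, two-sided) on log2(normalized count + 1), restricted to a gene mean of 1 or more, with group as the only term and Benjamini-Hochberg adjustment over 13981 genes. Fold changes on this scale understate those of low genes. A 2 against 2 exact permutation test cannot go below p = 0.333, so none is given. Levels per length used exonic lengths of GENCODE M21, which covered 97.9% of genes, and library totals. The length of a gene was the union of the exons of all its annotated transcripts. The fit and the inversion were checked on simulated data. Libraries of a group were distinct, with a chi-square per gene of 24.3 in G2 and 33.0 in G0.

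The genes, lists and tests were chosen with earlier results of these data known. The text names the 10 genes, every gene of a pathway list past the threshold and the 2 tested genes of each list with the smallest p. It also names Tert, preset marker genes, and those genes overlapping or neighbouring the 10 that were tested. Most of the overlapping or neighbouring genes that were not tested are left out. Markers without a row, among them Adgre1 and Cd3e, have no value here. Alternatives were pseudocounts of 0.5 and 5, no filter or a mean of 5, the deposited log2 values as they stand, library totals or upper quartiles as the scale, no intensity trend, limma voom, a replicate block, each library left out and, chosen after seeing the data, Ifi204 with Ifi211 and Trex1 with Atrip summed. Floors cover counting error only.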

Additional observations from a re-analysis of the deposited data

How the results depend on the processing

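The count of 0 of the 10 genes past the threshold held under 9 of 12 alternatives that used all 4 libraries. It was 1 with a pseudocount of 5 and 1 without the intensity trend, Ifi204 in both cases, and 5 with the replicate number as a block. Replicate numbers come from the titles and do not pair lines. The deviations of the libraries numbered 1 from their group means correlated at 0.11 between G2 and G0 over 13981 genes. With 2 libraries in a group, those numbered 2 deviate by the opposite amount and so add no further comparison. Under the block 3503 genes passed (1859 higher, 1644 lower) in place of 1467 (829 and 638), and 30 pathway genes in place of 16. Without the intensity trend 623 genes passed (382 and 241) and 5 pathway genes, and without a filter on low values 10 pathway genes. With limma voom 14 of the 16 pathway calls were kept, Oas3 and Usp18 being lost. With any 1 library left out, which leaves 1 line in a group that is assumed to vary like the other group, 0 genes of the table (0 higher, 0 lower) passed, and so 0 pathway genes, which says nothing about the stability of single calls, with 2376 to 3221 genes of the table at an unadjusted p under 0.05. The log2 fold change turned sign for Samhd1 with library totals (0.03). Leaving out 1 library it ranged from -0.21 to 0.05 for Irf3, from -0.34 to 0.12 for Trex1 and from -0.15 to 0.07 for Samhd1. The other 7 genes kept their sign under every alternative run. The cause of these shifts was not tested. Depth limits Ifi204, with 6 and 8 counts in G0.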

Other observations

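The genes that overlap or lie next to the 10 were read for their own values, 21 in all, of which 13 were tested. By limma 2 of the 13 were higher in G2 and 0 lower, against 5.93% and 4.56% of all genes tested. Fam124a, the next gene with a row on the higher coordinate side of Rnaseh2b at 182741 bases, had 187.6 and 179.9 normalized counts in G2 and 56.0 and 49.8 in G0 (adjusted p = 0.00756), while Rnaseh2b had 278.3 and 266.8 in G2 and 424.2 and 366.7 in G0. Rassf3, on the lower coordinate side of Tbk1 at 70205 bases, had 1944 and 1882 in G2 and 1309 and 1175 in G0 (adjusted p = 0.0305). Xpot, on the other side of Tbk1 at 586 bases, had 1489 and 1374 in G2 and 1425 and 1277 in G0 (adjusted p = 0.729). Shisa5, on the lower coordinate side of Trex1 at 140 bases, had 5432 and 5885 in G2 and 2850 and 4162 in G0 (adjusted p = 0.0637). Rassf5, Srgap2, Scaf1, Ap5b1 and Rbl1, the other neighbours tested, had overlapping groups and did not pass (limma, adjusted p from 0.44 to 0.851). The groups also overlapped for Xpot and for Bcl2l12, Atrip, Prdx2 and Kat5.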
